A study of Mus musculus with 6 samples.

Results

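T cells in an interferon response state made up a small part of the T cells taken from mouse melanomas. They were chosen by their own transcripts, as cells with unique molecular identifiers (UMIs, the tags that count single mRNA molecules) of at least 2 of the genes Ifit1, Ifit3, Isg15, Rsad2 and Usp18. This rule picked 265 of 12818 cells, which was 2.07% (exact Clopper-Pearson 95% interval 1.83 to 2.33%). A further 1225 cells held UMIs of 1 of the 5 genes, and 11328 cells held none and served as comparison cells. Since the rule reads these 5 genes, their levels are a description of the cells and are not tested.

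The cells were TCR-b+ T cells sorted by flow cytometry from subcutaneous B16-F10 melanomas, a tumor line of C57BL/6 origin, grown in Foxp3-EGFP-DTR mice. In these mice the endogenous Foxp3 gene also drives the diphtheria toxin receptor and EGFP, so that diphtheria toxin (DTx) kills Treg cells and other Foxp3-expressing cells. The series held 3 samples from mice given PBS, which kept their Treg cells, and 3 samples from mice given DTx. All 6 shared the genotype and the tumor line, and the study used young adult mice. The count table held 6 libraries, told apart by a barcode suffix from 1 to 6, and 0 of them could be tied to a sample by its labels. PBS was therefore not compared with DTx, no test between groups was made, and the values of single libraries are given side by side.

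Interferons are secreted proteins that warn cells of infection. Type I interferons bind the receptor chains Ifnar1 and Ifnar2 and type II interferon, encoded by Ifng, binds Ifngr1 and Ifngr2. Both act through Jak kinases on Stat transcription factors. Stat2 and Irf9 are parts of the complex ISGF3, which binds the interferon-stimulated response element in the promoters of its target genes, whereas type II interferon acts mainly through another element. Many target genes are shared by both types. Their products block the translation, replication or budding of viruses, sense foreign nucleic acids, or raise antigen presentation.

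The 5 genes that defined the cells encode parts of this antiviral program. Ifit1, on GRCm38 chr19:34640871-34650009 (plus strand), and Ifit3, on chr19:34583531-34588731 (plus strand), encode tetratricopeptide repeat proteins that act on viral RNA. Isg15, on chr4:156199424-156200818 (minus strand), encodes a ubiquitin-like protein that is joined to other proteins. Rsad2, on chr12:26442746-26456452 (minus strand), encodes viperin, an enzyme that restricts viral replication. Usp18, on chr6:121245906-121270917 (plus strand), encodes the protease that removes Isg15 from its targets and also damps signaling from the type I receptor.

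The promoters of the genes that define the state are shown because they carry the element that ISGF3 binds. Each sequence is the 250 bases before the RefSeq start site (GRCm38.p6), read 5' to 3' on the strand of the gene. Capitals mark matches to GAAANNGAAA or, on the other strand, TTTCNNTTTC, and neighboring matches can overlap. The window of Ifit1 is chr19:34640639-34640888 (plus strand), that of Ifit3 is chr19:34583279-34583528 (plus strand), that of Isg15 is chr4:156200819-156201068 (minus strand) and that of Rsad2 is chr12:26456453-26456702 (minus strand). Bst2, whose product tetherin holds budding viruses at the cell surface and which the rule did not use, is shown for comparison with its window at chr8:71537473-71537722 (minus strand).
Ifit1: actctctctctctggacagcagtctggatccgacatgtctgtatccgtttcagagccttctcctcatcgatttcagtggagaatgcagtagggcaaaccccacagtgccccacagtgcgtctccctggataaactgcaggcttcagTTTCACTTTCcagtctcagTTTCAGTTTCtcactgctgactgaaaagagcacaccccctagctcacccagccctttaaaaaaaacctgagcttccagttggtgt
Ifit3: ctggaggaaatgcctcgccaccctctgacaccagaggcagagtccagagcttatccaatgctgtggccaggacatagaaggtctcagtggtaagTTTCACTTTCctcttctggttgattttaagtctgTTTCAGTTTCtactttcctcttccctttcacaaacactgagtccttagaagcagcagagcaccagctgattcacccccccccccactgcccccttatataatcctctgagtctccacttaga
Isg15: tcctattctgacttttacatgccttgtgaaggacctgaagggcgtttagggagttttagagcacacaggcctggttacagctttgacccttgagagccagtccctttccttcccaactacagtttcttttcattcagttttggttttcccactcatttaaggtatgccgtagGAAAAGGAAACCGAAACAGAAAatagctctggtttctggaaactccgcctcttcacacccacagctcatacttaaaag
Rsad2: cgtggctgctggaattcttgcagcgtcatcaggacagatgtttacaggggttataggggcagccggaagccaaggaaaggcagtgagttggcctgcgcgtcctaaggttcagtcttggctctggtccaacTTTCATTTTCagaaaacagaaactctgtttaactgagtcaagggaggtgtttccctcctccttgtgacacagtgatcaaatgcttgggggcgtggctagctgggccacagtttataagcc
Bst2: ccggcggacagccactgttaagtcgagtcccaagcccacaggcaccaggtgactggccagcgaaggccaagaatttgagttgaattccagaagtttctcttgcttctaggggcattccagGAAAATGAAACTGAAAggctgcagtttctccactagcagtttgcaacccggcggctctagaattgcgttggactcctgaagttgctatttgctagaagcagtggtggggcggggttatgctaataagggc

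Within the search window, which also took in 50 bases after the start site, Ifit1 held 2 matches, Ifit3 held 2, Isg15 held 3, Rsad2 held 1 and Bst2 held 2. The match nearest the 5' end began 104 bases before the start site in Ifit1 and 156, 78, 120 and 130 bases before it in Ifit3, Isg15, Rsad2 and Bst2. All 4 rule genes with a promoter in the RefSeq table thus held the motif, whereas 1079 of 27025 promoters of the table did (3.99%). These are matches of letters and not measured binding.

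The 5 genes differed in how often they were seen. Isg15 was the most frequent, with a UMI in 1075 of all 12818 cells (8.39%) and in 232 of the 265 interferon response cells (87.5%). Ifit1 had a UMI in 165 of these cells (62.3%) and Ifit3 in 146 (55.1%), while Usp18 was seen in 69 (26.0%) and Rsad2 in 59 (22.3%). Isg15 was also the gene seen in 843 of the 1225 cells with a single rule gene. Of all Isg15 UMIs, 34.5% lay in the interferon response cells, against 70.8% of the Ifit1 UMIs, 66.1% of the Rsad2 UMIs, 63.0% of the Ifit3 UMIs and 41.7% of the Usp18 UMIs. The sort held no cell type that should lack these genes, so a background share from free RNA could not be read.

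Most cells passed the rule by a narrow margin. Exactly 2 of the 5 genes were detected in 165 cells, 3 in 67, 4 in 25 and all 5 in 8. The pair Ifit1 and Isg15 alone defined 61 cells (23%), Ifit3 and Isg15 alone 48 cells (18.1%), and the trio of Ifit1, Ifit3 and Isg15 defined 34 (12.8%). Per 10000 UMIs of the interferon response cells, the level of Isg15 was 9.35, 7.23, 14.7, 9.66, 9.75 and 11.8 in libraries 1 to 6. The level of Ifit1 on the same scale was 4.67, 3.91, 5.28, 4.79, 4.51 and 5.28. Library 2 had the lowest level of both genes.

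Every library held interferon response cells. Their number was 75 of 2124 cells in library 1, 18 of 2640 in library 2, 38 of 2268 in library 3, 40 of 1768 in library 4, 63 of 1987 in library 5 and 31 of 2031 in library 6. The shares were 3.53% (95% interval 2.79 to 4.41%), 0.682% (0.405 to 1.08%), 1.68% (1.19 to 2.29%), 2.26% (1.62 to 3.07%), 3.17% (2.44 to 4.04%) and 1.53% (1.04 to 2.16%) in the same order. Libraries 1 and 5 were highest and library 2 lowest, and the interval of library 2 lay below those of libraries 1, 3, 4 and 5. These intervals, like all others given here, cover counting error only.

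Depth differed between libraries and between the cells compared. The median number of UMIs per cell ran from 610 in library 3 to 2499.5 in library 4, and it was 1574 in the interferon response cells against 1205 in the comparison cells. The share of cells that passed the rule was 1.59, 1.25, 1.88 and 3.56% from the shallowest to the deepest quartile within libraries, so it was highest in the deepest cells but not ordered among the others. When each cell with enough UMIs was thinned to 1000 UMIs, 113 of 8113 cells passed (1.39%) and 4705 shallower cells were left out. The thinned shares were 2.75, 0.598, 2.56, 1.07, 1.43 and 1.06% in libraries 1 to 6. At 1500 UMIs, which left 5045 cells, they were 4.79, 1.26, 0.889, 1.21, 1.89 and 0.762%. Library 1 was highest at both depths, but the order of the others depended on depth, and library 2 was lowest at 1000 UMIs and not at 1500. For this reason, interferon response cells were compared with cells of the same library and depth quartile throughout.

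**Figure D1:**
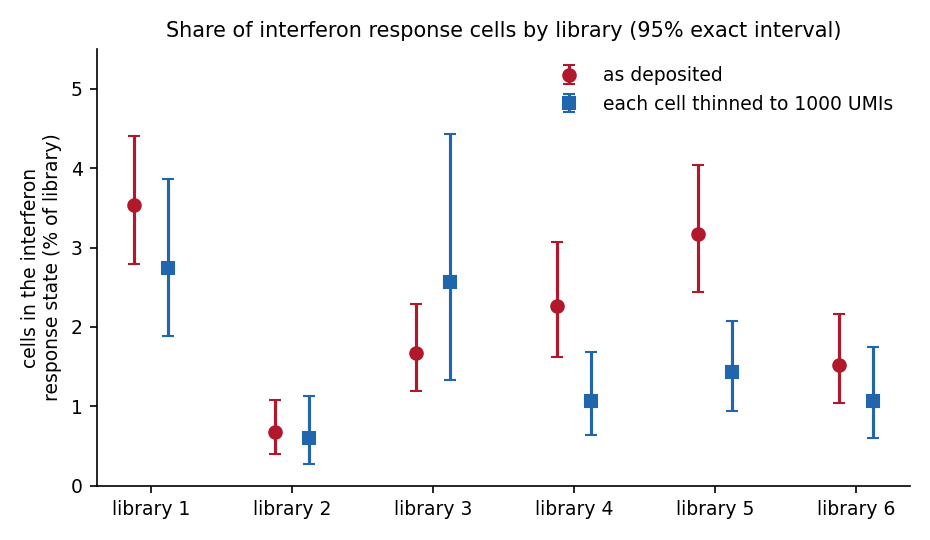
Share of cells in the interferon response state in each library (y axis, % of the library's cells), as deposited (circles) and after each cell was thinned to 1000 UMIs (squares), with exact 95% intervals as bars. Library 2 is lowest in both series at 0.682 and 0.598%, and library 5 falls from 3.17 to 1.43%.

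The lineage of the cells was read from Cd8a, Cd8b1 and Cd4, which encode the coreceptors of cytotoxic and helper T cells. Of the 265 interferon response cells, 126 held Cd8a or Cd8b1 UMIs but no Cd4 (47.5%, 95% interval 41.4 to 53.7%), against 40.6% of comparison cells weighted to the same libraries and depth quartiles. A Cd4 UMI without Cd8a or Cd8b1 was seen in 27 cells (10.2%, 6.82 to 14.5%; matched comparison 10.8%). None of the 3 genes was detected in 98 cells (37.0%, 31.2 to 43.1%), fewer than the 46.6% of matched comparison cells. Cells with CD8 transcripts were thus more frequent than cells with CD4 transcripts, and over 1 in 3 cells could not be placed.

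Among cells with UMIs of a single lineage, 126 of 153 interferon response cells were CD8 (82.4%, 95% interval 75.4 to 88.0%), and the matched comparison was 78.3%. By library, this CD8 share was 81.8, 100, 78.9, 71.9, 85.0 and 90.5% in libraries 1 to 6, where the matched comparison cells gave 82.7, 91.0, 77.8, 73.8, 74.0 and 82.4%. The share was higher than the comparison in libraries 2, 3, 5 and 6 and lower in libraries 1 and 4. The pooled comparison value lay inside the interval of the interferon response cells. Seen from the other side, 126 of 4510 CD8 cells (2.79%, 2.33 to 3.32%) and 27 of 1224 CD4 cells (2.21%, 1.46 to 3.19%) were in the interferon response state, and these intervals overlapped.

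Cells with UMIs of both lineages stood out. They made up 14 of the 265 interferon response cells (5.28%, 2.92 to 8.71%) against 1.99% of matched comparison cells, and 14 of all 168 such cells passed the rule (8.33%). The median depth of the 14 cells was 4895.5 UMIs, while that of interferon response cells was 1993 in the CD8 gate and 2343 in the CD4 gate. Comparison cells with UMIs of both lineages had a median of 4071 UMIs, so high depth was not particular to the 14 cells. Of these 14 cells, 6 were in library 1. Such depth and mixed coreceptors are also what droplets with 2 cells would give. The part of doublets in these 14 cells was not tested, and no doublet caller was run.

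**Figure D2:**
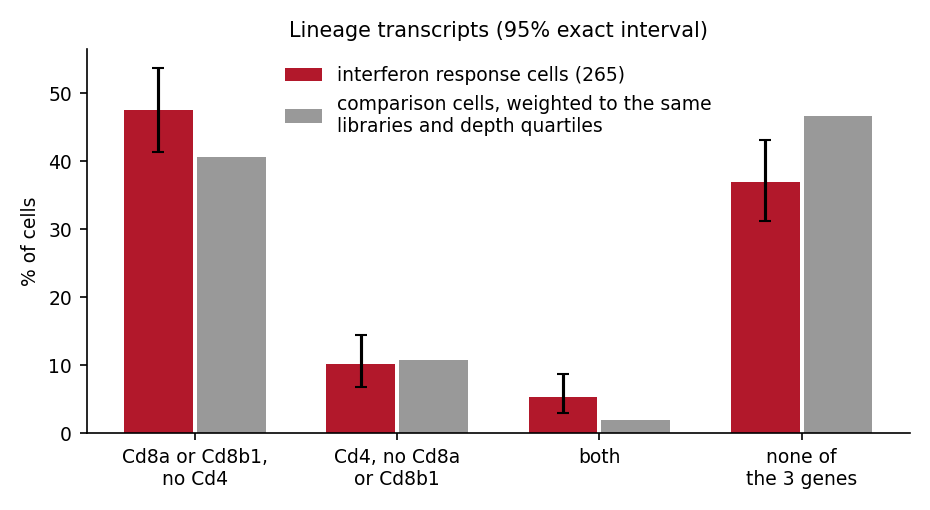
Share of cells by coreceptor transcripts (y axis, % of cells) in the 265 interferon response cells (red, with exact 95% intervals) and in comparison cells weighted to the same libraries and depth quartiles (grey). CD8 cells form 47.5 against 40.6%, CD4 cells 10.2 against 10.8%, cells with both 5.28 against 1.99%, and cells with none 37.0 against 46.6%.

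The sorted cells were checked for other cell types. A UMI of a CD3 gene was seen in 259 of the 265 interferon response cells (97.7%), and in 94.4% of matched comparison cells. Summed UMIs of 8 T cell genes were 1.06 times the expected number. UMIs of the myeloid marker list came to 47 where 49.4 were expected (ratio 0.952, exact Poisson 95% interval 0.699 to 1.27), and those of the B cell list were at 0.662 of expectation (0.461 to 0.920). Of these lists, 5 of 13 myeloid and 2 of 6 B cell markers were not in the table. No UMI of the melanoma list was seen where 4.88 were expected. The stromal list summed to 1.36 (0.845 to 2.09) and the NK cell list to 1.06 (0.629 to 1.68). At least 2 NK cell genes were seen in 3 interferon response cells, all in library 5 (1.13%, against 0.376% of matched comparison cells), and their part in the results was not tested. UMIs of at least 2 myeloid genes were seen in 3 cells (1.13%, against 1.10% of matched comparison cells), which does not by itself give a myeloid identity.

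For every other gene, the UMIs of the interferon response cells were divided by the number expected from comparison cells of the same library and depth quartile, and the 5 rule genes were left out of the totals. Of 5460 genes with at least 20 UMIs observed plus expected, 124 were at least 2-fold higher in the interferon response cells, which is 2.27% of the genes. At least 2-fold lower were 42 genes (0.769%). For the log2 value and these counts, 0.5 UMI was added to both numbers. Of the 124 higher genes, 63 were on lists of interferon-related genes, 1 was on another list and 60 were on none. In libraries with at least 5 UMIs of a gene, 95 of the 124 pointed the same way in 3 or more libraries and 2 pointed both ways, while 27 could be read in fewer than 3 libraries. All 34 of the higher genes that could be read in 6 libraries were higher in 6. These genes were called in the pool of the same libraries, and UMIs of the interferon response cells count toward the 5. Agreement between libraries is thus partly built in and is given as a description. With a filter that did not read the interferon response cells, at least 10 UMIs expected, 73 of 5434 genes were at least 2-fold higher (1.34%) and 86 were at least 2-fold lower (1.58%), so that the balance of directions depended on the filter.

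**Figure D3:**
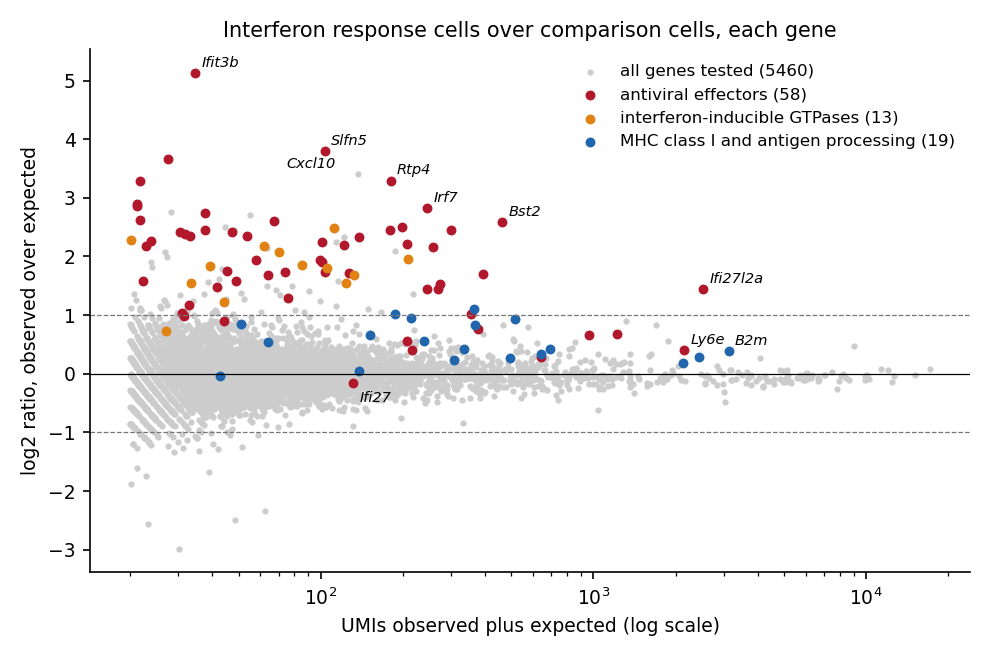
Each tested gene by its UMIs observed plus expected (x axis, log scale) and its log2 ratio of observed over expected UMIs in the interferon response cells (y axis), with dashed lines at 2-fold. Antiviral effectors (58, red) and interferon-inducible GTPases (13, orange) lie mostly above the upper line, whereas MHC class I genes (19, blue) lie mostly between 0 and 1.

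The antiviral effectors formed the largest group. Of 72 listed genes, 67 were in the table and 58 had enough UMIs. Of these, 48 were at least 2-fold higher and 0 were 2-fold lower, and 57 had a ratio above 1. Their median log2 ratio was 1.94 (95% interval of the median 1.68 to 2.32), while that of all 5460 genes was 0.00068. A gene can reach 20 UMIs through the interferon response cells alone, so the list was also read with at least 10 UMIs expected. Then 28 of 38 antiviral genes were at least 2-fold higher, with a median log2 ratio of 1.70.

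Summed over the list, the interferon response cells held 9862 antiviral UMIs where 4232 were expected, a ratio of 2.33 (2.28 to 2.38). The ratio was 2.49, 2.44, 2.84, 2.30, 2.17 and 2.07 in libraries 1 to 6. No library came near 1, and the library with the fewest interferon response cells, library 2, lay within the range of the others. Single cells spread widely, from 18 UMIs at the lower to 50 at the upper quartile, with a median of 29 and a highest value of 183. At least 1 antiviral UMI was seen in each of the 265 cells and in 98.8% of matched comparison cells.

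The summed level differed with the number of rule genes detected, which is the value the rule used, and it is given as a description. Cells with 1 rule gene, just outside the threshold, had a ratio of 1.30, and cells with exactly 2, just inside it, had 1.98. The ratio was 2.62 in cells with 3 rule genes, 3.22 in the 25 cells with 4 and 2.82 in the 8 cells with 5. Per 10000 UMIs the level was 69.6 in comparison cells, 92.8 with 1 gene, 141 with 2, 186 with 3, 237 with 4 and 203 with 5. It was thus higher with each further gene up to 4, and the cells with all 5 lay between those with 3 and 4.

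**Figure D4:**
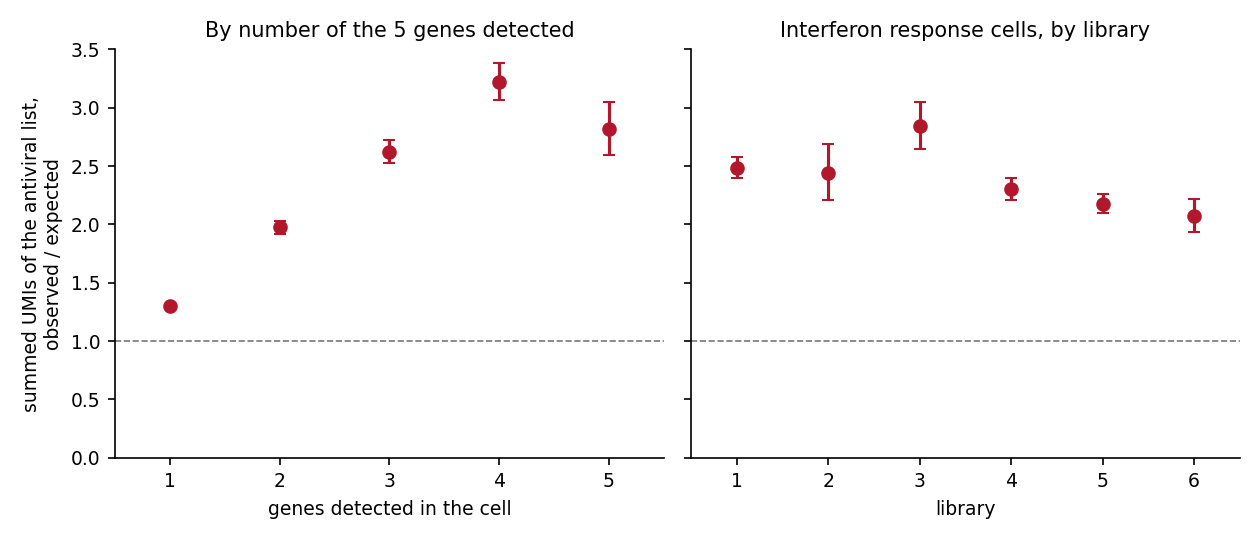
Summed UMIs of the antiviral list, observed over expected (y axis), by the number of the 5 rule genes detected in a cell (left) and by library for the interferon response cells (right), with exact Poisson 95% intervals as bars. The ratio is 1.30 with 1 gene, 1.98 with 2, 2.62 with 3, 3.22 with 4 and 2.82 with 5, and lies between 2.07 and 2.84 in the 6 libraries.

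Slfn5, a schlafen family gene, had 97 UMIs in the interferon response cells where 6.5 were expected, a ratio of 14.9 (95% interval 12.1 to 18.2). Rtp4, which encodes a regulator of interferon responses, had 164 UMIs where 16.3 were expected (10.1, 8.59 to 11.7), and its log2 ratio was 2.88, 2.14, 3.75, 3.48, 3.19 and 3.09 in libraries 1 to 6. Bst2 had 397 where 65.8 were expected (6.04, 5.46 to 6.66), with log2 ratios of 2.47, 2.13, 2.31, 3.2, 2.50 and 1.77. For each of these 3 genes all 6 libraries were higher. Cmpk2, a nucleotide kinase gene next to Rsad2, had 26 UMIs where 1.6 were expected (16.4, 10.7 to 24), and Oasl2, of the oligoadenylate synthetase family, had 20 (12.5, 7.61 to 19.2). Ifit1bl1, an Ifit family gene, had 19 UMIs and a ratio of 9.0, so these 3 genes rested on few molecules.

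Other antiviral genes differed by a wide range of factors. Ifi27l2a, an interferon-induced mitochondrial protein gene, had the most UMIs of the list, 1850 where 679 were expected (2.73, 2.60 to 2.85), and it was higher in 6 of 6 libraries. Samhd1, which encodes an enzyme that breaks down deoxynucleotides, had a ratio of 2.74 (2.37 to 3.16), Isg20, an exonuclease gene, 5.58 (4.73 to 6.55), and Xaf1, a pro-apoptotic gene, 5.78 (4.94 to 6.72). Other listed genes moved little. Ly6e, a surface protein gene, had 1226 UMIs where 924 were expected (1.33, 1.25 to 1.40), and Ifitm3, which blocks viral entry, had a ratio of 1.22 (1.10 to 1.35). Ifi27 was the only antiviral gene tested with a ratio below 1, with 62 UMIs where 69.4 were expected (0.894, 0.685 to 1.15), and it was higher in 2 of 6 libraries. Ifit3b had the highest ratio of all, 34 UMIs where 0.5 were expected, but it is nearly identical to the rule gene Ifit3 and reads may have been split between them. Without it the summed ratio of the list was 2.32.

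The transcription factors were uneven. Of 10 tested, 4 were at least 2-fold higher, which the antiviral list also held, and the median log2 ratio was 0.54. With at least 10 UMIs expected, 3 of 9 were 2-fold higher. Irf7, which amplifies type I interferon production and is itself induced by interferon, had 215 UMIs where 30.1 were expected (7.15, 6.23 to 8.17). Its log2 ratio was 2.45, 2.58, 2.24, 2.97, 3.12 and 2.57 in libraries 1 to 6. Stat2 had a ratio of 5.68 (4.06 to 7.73) and Irf9 one of 2.48 (1.86 to 3.24). Irf1, a main target of type II interferon, had 140 UMIs where 125 were expected (1.12, 0.942 to 1.32), and 4 of 6 libraries were higher. Irf7, Stat2 and Irf9 thus differed from comparison cells far more than Irf1, whose interval includes 1.

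Receptors and kinases of the pathway stayed within 2-fold. None of the 7 tested genes was 2-fold higher, and their summed ratio was 1.10. The receptor genes Ifnar1 (38 UMIs, ratio 1.20, 0.849 to 1.65), Ifnar2 (1.32, 0.936 to 1.82) and Ifngr1 (336 UMIs, 1.05, 0.939 to 1.17) had intervals that include 1. Tyk2, the kinase bound to Ifnar1, had the highest ratio of the list, 1.85 (1.06 to 3.0) on 16 UMIs, and was higher in each of the 3 libraries where it could be read. Jak1 had a ratio of 1.26 (1.08 to 1.47) but was higher in 3 of 6 libraries only, and Jak2 had 0.758 (0.536 to 1.04). Ifng was the only one of 5 listed ligand genes in the table. Its 291 UMIs where 269 were expected gave a ratio of 1.08 (0.961 to 1.21), and its log2 ratio was -0.13, 1.47, 0.09, 0.02, 0.02 and 0.76 in libraries 1 to 6. Of 6 feedback inhibitor genes, 0 were 2-fold higher, and Socs1, which blocks Jak kinases, had a ratio of 1.37 (1.04 to 1.76). The rule gene Usp18 was not counted among them.

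Sensors of nucleic acids were mostly higher. Of 7 tested sensor genes 5 were at least 2-fold higher, 4 of them also on the antiviral list, with a summed ratio of 3.12. With at least 10 UMIs expected, 2 of 4 were 2-fold higher. Zbp1, which senses Z-form nucleic acids and had the most UMIs, had 253 where 46.1 were expected (5.49, 4.83 to 6.21). The RNA helicase genes Dhx58 (19 UMIs, 8.75, 5.27 to 13.7), Ifih1 (32 UMIs, 5.84, 4.0 to 8.25) and Ddx58 (57 UMIs, 3.4, 2.57 to 4.4) showed the same direction. Tmem173, which encodes the DNA-sensing adaptor STING, had a ratio of 0.872 (0.611 to 1.21). Of the 4 genes of enzymes that attach Isg15 to proteins, all also on the antiviral list, 3 were at least 2-fold higher with 0.5 UMI added, and 2 of 3 with at least 10 UMIs expected. Ube2l6, its conjugating enzyme, had a ratio of 7.32 (5.04 to 10.3), the ligase Herc6 had 3.48 (2.43 to 4.84), Trim25 had 3.08 (2.17 to 4.25) and the activating enzyme Uba7 had 2.03 (1.26 to 3.10).

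The interferon-inducible GTPases, which attack the vacuoles of pathogens inside cells and are strongly induced by type II interferon, were higher as a group. At least 2-fold higher were 12 of 13 tested genes, the median log2 ratio was 1.83 (1.54 to 2.19), and the summed ratio was 3.62 (3.38 to 3.88), with values between 2.88 and 5.03 in the 6 libraries. With at least 10 UMIs expected, 9 of 10 genes were 2-fold higher. Gbp6 had 95 UMIs where 16.5 were expected (5.75, 4.66 to 7.03), Irgm1 57 (4.34, 3.29 to 5.62), Ifi47 166 (3.93, 3.35 to 4.57), Igtp 82 (3.56, 2.83 to 4.42) and Gbp7 101 (3.25, 2.65 to 3.95), each higher in 6 of 6 libraries. Gbp3 was the exception at 1.69 (0.983 to 2.70). Members of this family share sequence, so that single genes are less certain than their sum.

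Genes of MHC class I antigen presentation were higher by small factors. Of 19 tested, 18 had a ratio above 1, but only 2 reached 2-fold, and the median log2 ratio was 0.42 (0.27 to 0.85). The summed ratio was 1.32 (1.29 to 1.35) and lay between 1.28 and 1.47 in the 6 libraries. H2-T22, a nonclassical class I gene, had a ratio of 2.16 (1.90 to 2.45) and Tapbp, which loads peptides, 2.04 (1.70 to 2.43). The immunoproteasome genes Psmb10 and Psmb9 had 1.94 (1.64 to 2.29) and 1.78 (1.56 to 2.03). B2m, the light chain, had 1776 UMIs where 1357 were expected (1.31, 1.25 to 1.37) and was higher in 6 of 6 libraries. The classical heavy chain genes H2-K1 at 1.22 (1.15 to 1.29) and H2-D1 at 1.14 (1.07 to 1.21) were closer to comparison cells, and Erap1, a peptide-trimming enzyme gene, had a ratio of 0.973 (0.602 to 1.49).

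Outside the lists, the 15 genes with the highest ratios and 1 direction are named. Cxcl10, a chemokine that draws Cxcr3-bearing T cells, had 125 UMIs where 11.4 were expected (11.0, 9.13 to 13.1), and its log2 ratio was 2.63, 4.32, 3.54, 2.34, 3.67 and 2.89 in libraries 1 to 6. Rnf213, a large ubiquitin ligase gene, had 102 UMIs (5.15, 4.20 to 6.25), Daxx, a histone chaperone gene, 94 (4.85, 3.92 to 5.94) and Slfn1, a schlafen gene tied to T cell quiescence, 152 (4.32, 3.66 to 5.07). These 4 genes were higher in 6 of 6 libraries. Ifi214 (6.94), Phf11c (6.03), Phf11a (5.77) and Ifi208 (4.60) belong to families of near-identical genes and are uncertain one by one. The list goes on with Hsh2d (4.27), Ms4a4c (3.57), 9930111J21Rik2 (3.15), the NAD synthesis gene Nampt (3.04), Samd9l (2.88), the small heat shock protein gene Hspb1 (2.86) and 1600014C10Rik (2.74).

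The motif marked above was more frequent in the promoters of the higher genes than in those of all tested genes. Of the 124 genes at least 2-fold higher, 104 had a promoter in the RefSeq table, and 41 of these held GAAANNGAAA on either strand (39.4%). Among the tested antiviral genes it was 23 of 46 (50%). The share was 205 of 4369 for all tested genes (4.69%) and 1 of 35 for the genes at least 2-fold lower (2.86%). The antiviral list was written from interferon-related genes, and 63 of the 124 higher genes were on such lists. These shares are thus partly built in and are given as a description. The filter behind the 124 genes also reads the interferon response cells. No motif share is given for the genes called with at least 10 UMIs expected. Irf7, among the genes furthest from comparison cells, held 0 matches in its window, which says only that these letters are not there.

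The number of lower genes depended on the filter, with 42 at 20 UMIs observed plus expected and 86 at 10 UMIs expected. Of the 42 genes, 18 pointed the same way in 3 or more libraries, 20 could be read in fewer than 3, and 0 could be read in 6. With at least 50 UMIs observed plus expected, 3 genes remained, Lgals7, Siva1 and Psmg4, a set named after its values were seen. Lgals7, a galectin gene, had 10 UMIs where 52.5 were expected (0.191, 0.0914 to 0.350), and Siva1, a pro-apoptotic gene, had 15 where 36.4 were expected (0.412, 0.230 to 0.679). Cisd1, a mitochondrial iron-sulfur protein gene, had 9 where 29.8 were expected (0.302, 0.138 to 0.573). The other 12 of the 15 lowest with 1 direction, Sdf2l1, Sypl, Ebpl, Myo9b, Gm10131, Rrp7a, Mettl9, Tmed3, Lyar, Cyhr1, Capn1 and Herc2, lay between 0.384 and 0.469 with 7 to 12 UMIs each.

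The response was seen in both lineages and in cells gated by naive or by cycling genes. The summed antiviral ratio was 2.44 in CD8 and 2.33 in CD4 interferon response cells, each against comparison cells of its own lineage. It was 2.55 in cells without coreceptor UMIs and 1.69 in the 14 cells with both. The GTPases gave 3.4 in CD8 and 4.61 in CD4 cells. Of all genes with enough UMIs within the CD8 gate, 103 of 3585 were at least 2-fold higher, and within the CD4 gate, with 27 cells, 37 of 894. At least 2-fold lower were 24 genes in the CD8 gate and 6 in the CD4 gate. A gene can pass this filter through the interferon response cells alone, and no count by expected UMIs is given for the gates. By state, the antiviral ratio was 2.23 in the 111 cells with UMIs of at least 2 naive genes, 1.96 in the 36 cells with at least 2 cycling genes and 2.64 in the other 118.

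The shares of the states are given beside the matched comparison. Cells with at least 2 cycling genes were 13.6% of the interferon response cells (9.70 to 18.3%), against 14.8% of matched comparison cells, and cells with at least 2 naive genes were 41.9% (35.9 to 48.1%) against 46.2%. Both comparison values lay inside the intervals. The summed naive list was at 0.903 of expectation and the cycling list at 0.943, but libraries differed. The cycling ratio was 1.27, 1.09, 0.436, 0.474, 1.27 and 0.465 in libraries 1 to 6, and the naive ratio was 0.852, 0.783, 0.786, 0.844, 1.15 and 1.22. Cycling genes were thus below expectation in libraries 3, 4 and 6 and above it in libraries 1, 2 and 5. Within the gates, the cycling ratio was 0.839 (0.737 to 0.951) in CD8 and 1.38 (1.10 to 1.70) in CD4 cells. Of the 87 cycling UMIs in CD4 cells, 74 were in library 5. Within the naive list, Ccr7, the chemokine receptor for lymph node entry, had 46 UMIs where 85.4 were expected (0.539, 0.394 to 0.719) and was lower in 4 of 5 libraries.

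Effector genes leaned higher without reaching 2-fold. None of 12 cytotoxic genes was 2-fold higher, 11 had a ratio above 1, and the summed ratio was 1.30. By library it was 0.942, 2.59, 1.33, 1.46, 1.49 and 1.22, so that library 1 lay below 1 and library 2, with 18 interferon response cells, well above the rest. Within the CD8 gate the ratio was 1.16, and within the CD4 gate 0.867. Gzmb, the protease granzyme B, had 506 UMIs where 346 were expected (1.46, 1.34 to 1.59). Ccl5, a chemokine, had 5245 where 3775 were expected (1.39, 1.35 to 1.43). Gzma, granzyme A, had 619 where 632 were expected (0.979, 0.903 to 1.06). The pooled values of Ccl5 and Gzma hide opposite directions in the gates. Ccl5 was at 1.26 (1.22 to 1.29) in CD8 and 0.629 (0.515 to 0.760) in CD4 cells. Gzma was at 0.794 (0.724 to 0.868) in CD8 and 1.97 (1.20 to 3.04) in CD4 cells. Nkg7, of the same list, was at 1.13 (1.05 to 1.23) in CD8 and 0.664 (0.460 to 0.928) in CD4 cells. Gzmk, granzyme K, was at 0.959 (0.750 to 1.21) in CD8 and 4.09 (2.43 to 6.47) in CD4 cells, the latter on 18 UMIs. Gzmb was above 1 in both, at 1.22 (1.10 to 1.36) and 1.93 (1.35 to 2.67).

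Among 10 checkpoint genes, Cd274 alone was 2-fold higher. This gene encodes PD-L1, the ligand of the inhibitory receptor PD-1, and is known to be induced by interferons. It had 87 UMIs where 28.9 were expected (3.02, 2.42 to 3.72) and was higher in each of the 5 libraries where it could be read. Pdcd1, the gene of PD-1 itself, had a ratio of 1.17 (0.945 to 1.43), Havcr2, which encodes TIM-3, 0.671 (0.404 to 1.05) and Ctla4 0.798 (0.647 to 0.975). The summed ratio of the list was 1.11. The ligand of PD-1 thus differed while the inhibitory receptors stayed within 2-fold of the comparison cells.

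Helper and stress lists were mixed. Of 6 genes of the Th2 list, 1 was 2-fold lower, Il13, with 12 UMIs where 29.9 were expected (0.402, 0.208 to 0.702), though 1 library of 3 was higher. The summed Th2 ratio was 0.768 (0.653 to 0.897). It was 1.09, 1.69, 0.329, 0.690, 0.621 and 1.25 in libraries 1 to 6, below 1 in 3 of them. Against comparison cells of the same lineage, it was 1.10 (0.797 to 1.47) in CD8 and 0.918 (0.656 to 1.25) in CD4 cells. Both of these intervals include 1, so the lower pooled value was not seen within either gate. The Treg list summed to 1.0, immediate early genes to 1.05 and heat shock genes to 1.11, and 0 genes of these 3 lists reached 2-fold. Foxp3, of the Treg list, had too few UMIs for this count. A Foxp3 UMI was seen in 8 interferon response cells (3.02%, 1.31 to 5.86%), against 1.64% of matched comparison cells. Of these 8 cells, 6 were in library 1 and 2 in library 2. Comparison cells with a Foxp3 UMI numbered 46, 27, 15, 0, 1 and 2 in libraries 1 to 6, so they too lay mostly in the first libraries.

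**Figure D5:**
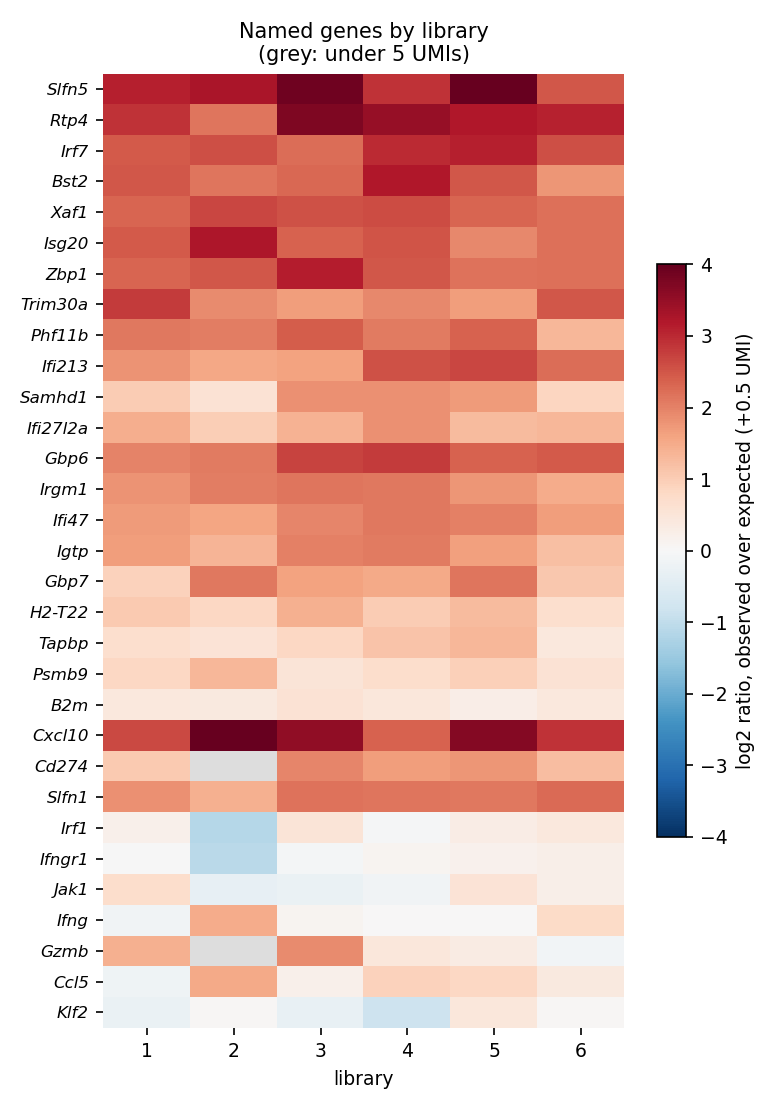
Log2 ratio of observed over expected UMIs (color, 0.5 UMI added to both, red higher and blue lower in the interferon response cells) of named genes (rows) in libraries 1 to 6 (columns), with genes under 5 UMIs in grey. Antiviral genes, GTPases and Cxcl10 are red in every library, while Irf1, Ifngr1, Jak1, Ifng and Klf2 change color between libraries.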

How the data were processed

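T cells sorted from tumors were profiled by droplet 5' single-cell RNA-seq (10x Chromium). The authors aligned and counted reads with Cell Ranger, joined the libraries and filtered cells in Seurat, per the methods and the labels. The deposited table holds raw counts of UMIs for 14597 genes in 12818 cells, without normalization. The methods name mm10 and the submitters' processing notes mm9 as the build. The annotation version is not given in the sources used here. Gene coordinates are from GENCODE and promoters from RefSeq, both on GRCm38.

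The table holds 21816565 UMIs, and each cell shows between 201 and 2494 genes. Of the 6 libraries, 0 carry a label of a sample, so PBS and DTx were not compared and the libraries stand for 1 pool. The study describes the samples as biological replicates. Barcodes were shared between libraries by 76 pairs of cells, none with an interferon response cell. The members and gene lists were chosen with earlier results of these data known.

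Expected UMIs are those of comparison cells of the same library and depth quartile, scaled to the UMIs of the interferon response cells without the 5 rule genes. Intervals are exact (Clopper-Pearson for shares, Poisson for ratios, binomial order statistics for medians of a list) at 95% and cover counting error only, and the error of the expected number is not included. PCR copies are collapsed by UMI. A gene was called at 2-fold in the pool. A library's direction was read with at least 5 UMIs observed plus expected. The libraries are those of the pool, so their directions are no independent check of a call. Named genes are the rule genes, the highest of each list (up to 8 antiviral, up to 5 otherwise), genes below 1 where their list is above, and, outside the lists, the 15 highest and 15 lowest past 2-fold with 1 direction in at least 3 libraries. Further genes whose known roles complete a list were named after their values were seen. Alternatives changed the number of rule genes, the depth, the filter on UMIs, the weighting and the cells or libraries used. Computations used Python 3.11.15 with numpy 2.4.6, scipy 1.17.1, pandas 2.3.3 and matplotlib 3.10.9, and the ratio script was tested on simulated data.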

Additional observations from a re-analysis of the deposited data

Results flagged for a closer look

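Of 21 values compared across the 6 libraries, 2 had 1 library far from the other 5, and chance gives such a gap in about 1 of 20. Both were in library 2, which held 18 interferon response cells. The summed cytotoxic effector ratio was 2.59 in that library and 0.942 to 1.49 in the others. The summed checkpoint ratio was 1.80 in that library and 0.904 to 1.23 in the others.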

How the results depend on the processing

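No paired analysis was possible because the libraries carry no sample or replicate label and no result comes from a test. The share of interferon response cells, 2.07%, was 0.780% with at least 3 of the 5 genes and 0.624, 1.39 and 1.74% after thinning to 500, 1000 and 1500 UMIs, and it ran from 1.78% without library 1 to 2.43% without library 2. The CD8 share of lineage-gated cells stayed within its interval under all 14 settings tried. Settings that changed only the matching, the comparison cells or the shared barcodes kept the same cells, at 82.4%, and could not move it. The matched comparison share ran from 76.1 to 84.1% over the settings. The median log2 ratio of the antiviral list stayed within its interval under 18 of 19, and was 1.41 within the CD4 gate. The 124 genes at least 2-fold higher became 58 after thinning to 1000 UMIs, 61 with at least 50 UMIs, 751 with at least 1 UMI, 37 within the CD4 gate, 73 with at least 10 UMIs expected, and 107 to 120 with a library left out. The 42 lower genes became 22 with at least 3 of the 5 genes, 6 after thinning, 3 with at least 50 UMIs, 888 with at least 1 UMI, 113 by means per cell, 24 within the CD8 gate, 6 within the CD4 gate, 86 with at least 10 UMIs expected, and 33 to 40 with a library left out. The filter on expected UMIs and the removal of shared barcodes were chosen after seeing the data. Fewer cells or UMIs leave fewer genes to test in the thinned and gated settings. The cause of the other shifts was not tested. Library 2, with 18 interferon response cells, gives the least precise values.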
